A study of Saccharomyces cerevisiae with 15 samples.

Results

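Glycolysis and fermentation in budding yeast were described through 34 genes: the enzymes from hexose phosphorylation to ethanol, the enzymes that make and break down fructose 2,6-bisphosphate, and 4 regulators of transcription. Members were found by gene symbol in the annotation of the Affymetrix Yeast Genome 2.0 array. The matching used no measured value, but the list was chosen with earlier results of these data known. None of the members' probe sets is of the kind the array marks as sharing probes with other genes. A probe set was named for 33 of the 34 genes, 1 probe set each, and these 33 are among the 5449 Saccharomyces cerevisiae genes tested. The remaining member, TDH2, a glyceraldehyde-3-phosphate dehydrogenase gene, was not analysed here.

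The study compared strains with mutations in the largest subunits of RNA polymerase II, the enzyme that transcribes protein-coding genes, with wild types of the same mating type. There were 5 strains with 3 biological replicates each, so 15 arrays. All 5 carry ade2-1, can1-100 and his3-11,15, the double allele of leu2-3 and leu2-112, and also trp1-1, ura3-1 and RAD5. WT1B (strain W303-1BR5), rpb1-1 (strain WRP1- 12A) and rpb1S751F (strain WSR8-5A) are MATα, and WT1A (strain W303-1AR5) and rpb2-10 (strain WRP2) are MATa. The rpb1 alleles lie in the gene for the largest subunit (RPO21) and rpb2-10 in that for the second largest (RPB2). Each mutation was represented by 1 strain, and the labels name YPAD medium and mid-log growth but no temperature. Both rpb1 mutants were compared with the same WT1B arrays, so those comparisons share their control.

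Glycolysis splits glucose into pyruvate with a net gain of ATP, and budding yeast in glucose medium turns most of that pyruvate into ethanol through pyruvate decarboxylase and alcohol dehydrogenase, which restores NAD+. Many steps are served by isoenzymes of which one is abundant during growth on glucose while others are known for expression on poorer carbon sources, in stress or near stationary phase. Fructose 2,6-bisphosphate is a regulatory metabolite that activates phosphofructokinase and inhibits the reverse reaction of gluconeogenesis.

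The values are log2 expression levels deposited after RMA, a method that corrects background, brings the arrays it is given to a common distribution by quantile normalization and summarises the probes of a probe set. Levels are therefore relative to the other genes of an array, and a change common to most transcripts, or a different amount of RNA per cell, would not be seen. Each sample is a whole culture, so fewer cells of a kind and less RNA per cell cannot be told apart. Median levels of tested genes lay between 10.04 and 10.09 on the 9 alpha arrays and between 7.75 and 7.83 on the 6 a arrays, so the sets appear normalized apart and each mutant was tested within its own set. Replicates of a strain correlated across genes between 0.987 and 0.998, and the median SD of a gene was 0.113 to 0.125 in the alpha strains and 0.0657 to 0.0664 in the a strains. A gene was called where limma's moderated test gave an adjusted p under 0.05 over the 5449 genes, and changes are given on the log2 scale ± SE with n = 3 arrays in each group. Relative to the array median, alpha-specific genes averaged 2.65 to 2.76 in WT1B, -0.54 to -0.18 in rpb1-1 and 1.24 to 1.91 in rpb1S751F. In the a strains they averaged -3.53 to -3.05. In rpb1-1 they ranged from -2.65 for MF(ALPHA)2 to 2.34 for MF(ALPHA)1. The a-specific genes averaged 0.93 to 1.34 above the median in the a strains and 3.10 to 4.03 below it in the alpha strains. Of these genes, AGA2 (-0.62 and -0.64) and ASG7 (-2.74 and -1.88) lay below the median in WT1A and rpb2-10.

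All 33 measured members stood above the background of probe sets for another yeast on all 15 arrays. TDH3, another glyceraldehyde-3-phosphate dehydrogenase gene, was the brightest tested gene on 15 of 15 arrays. ADH1, CDC19, ENO2, FBA1, GPM1, PDC1, PGK1, TDH3 and TPI1 lay within 1 log2 unit of the array's maximum on each array. Whether normalization or probe saturation limits changes at such levels was not tested. The changes of these 9 spanned -0.32 to -0.02 in rpb1-1, -0.27 to 0.08 in rpb1S751F and 0.01 to 0.17 in rpb2-10. The other 24 members spanned -3.39 to 1.88, -0.86 to 3.03 and -1.41 to 1.98 in the same order.

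In rpb1-1, 20 of the 33 members were called, 5 higher and 15 lower than in WT1B. Over all tested genes 53.8% were called, 28.1% higher and 25.7% lower, against 15.2% and 45.5% of the members. The members' median change was -0.18, beside -0.01 over all genes, and their median absolute change was 0.56, beside 0.34. In rpb1S751F, 17 members were called, 11 higher and 6 lower, beside 54.6% of all genes, 31.1% higher and 23.5% lower. The median change there was 0.06 against 0.04 over all genes, and the share of members called, 51.5%, was near the background.

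In rpb2-10, 19 members were called, 11 higher and 8 lower, against a background of 71.2%, with 32% higher and 39.1% lower. The members' median change was 0.02, beside -0.05 over all genes, and the median absolute change was 0.18, beside 0.30. The direct comparison of the rpb1 alleles gave the largest share of calls among the members: 21 were called, 19 higher and 2 lower in rpb1S751F than in rpb1-1, where 48% of all genes were called, 25.3% higher and 22.8% lower. The median change was 0.34 there, against 0.00 over all genes. Arrays of the groups compared did not overlap for 26 members in rpb1-1 (63.2% of all genes), 20 in rpb1S751F (62.5%), 23 in rpb2-10 (76.1%) and 27 between the rpb1 alleles (56.7%). Calls with a change of at least 1 log2 unit numbered 4 in rpb1-1 (11.4% of all genes), 6 in rpb1S751F (11.2%), 3 in rpb2-10 (6.46%) and 7 between the rpb1 alleles (10.2%).

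The effects of the alpha mutants were also set against that of rpb2-10, each effect taken within its own set. The rpb1-1 and rpb2-10 effects differed for 20 members, 5 higher and 15 lower in rpb1-1, where 56.7% of all genes differed (31.1% higher and 25.6% lower). The rpb1S751F and rpb2-10 effects differed for 10 members, 8 higher and 2 lower in rpb1S751F, beside 51.7% of all genes (30.7% higher and 21% lower). Mating type and the normalization set go with the mutated gene in these contrasts and cannot be told apart from it.

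**Figure D1:**
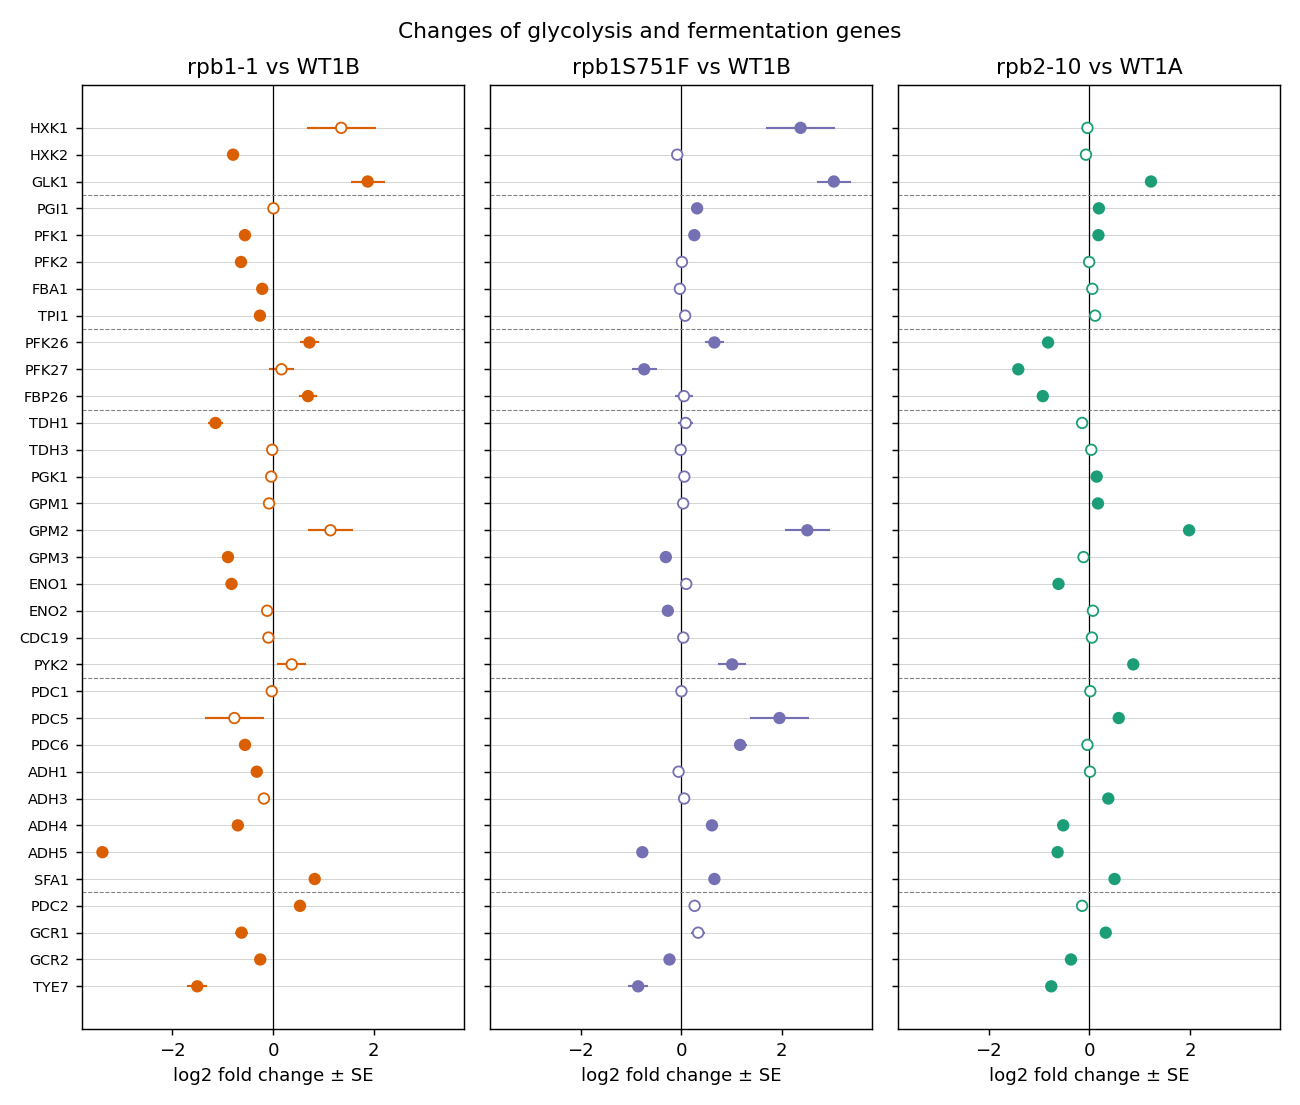
Log2 change of 33 glycolysis and fermentation genes in rpb1-1 and rpb1S751F against WT1B and in rpb2-10 against WT1A (points, ± SE, 3 arrays per group). Filled points passed an adjusted p of 0.05, open points did not, and dashed lines separate the roles. ADH5 at -3.39 in rpb1-1 and GLK1 at 3.03 in rpb1S751F are the ends of the range, and the 9 brightest genes sit near 0.

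Among the hexose-phosphorylating enzymes, glucokinase (GLK1), which phosphorylates glucose but not fructose, was higher in the 3 mutants. Its levels in WT1B were 9.07, 9.75 and 10.42. In rpb1-1 they were 11.41, 12.03 and 11.44, and in rpb1S751F they were 12.38, 13.16 and 12.80. The wild-type arrays overlapped with neither mutant, and the rpb1S751F arrays lay above those of rpb1-1. GLK1 thus rose by 1.88 ± 0.34 in rpb1-1 (3.68-fold, adjusted p = 0.00164) and by 3.03 ± 0.34 in rpb1S751F (8.20-fold, adjusted p = 0.000135). In the a strains it was at 8.02, 7.98 and 7.95 in WT1A and at 9.37, 9.05 and 9.20 in rpb2-10. Those groups did not overlap either, with a rise of 1.23 ± 0.08 (2.34-fold, adjusted p = 2.32e-06). The GLK1 effect of rpb1S751F exceeded that of rpb2-10 by 1.81 ± 0.40 (adjusted p = 0.00196, 1 limma fit over the 15 arrays). In the same fit the rpb1-1 and rpb2-10 effects on GLK1 differed by 0.66 ± 0.40, which was not called (adjusted p = 0.179).

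Hexokinase 2 (HXK2), the hexokinase that predominates on glucose and also takes part in glucose repression, fell in rpb1-1. It was at 13.23, 13.46 and 13.45 in WT1B and at 12.59, 12.63 and 12.53 in rpb1-1, without overlap, a change of -0.79 ± 0.08 (adjusted p = 7.13e-05). In rpb1S751F it was at 13.26, 13.27 and 13.37, within the wild-type range, a change of -0.08. HXK2 was 0.72 ± 0.08 higher in rpb1S751F than in rpb1-1 (adjusted p = 0.000151), so the effects of the rpb1 alleles on it differed. In rpb2-10 the change was -0.07, and the rpb1-1 effect was lower than the rpb2-10 effect by a difference of -0.73 (adjusted p = 4.95e-05).

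Hexokinase 1 (HXK1), known for derepression on carbon sources other than glucose, varied widely among replicates. WT1B arrays were at 7.87, 8.79 and 10.27, rpb1-1 arrays at 9.78, 11.40 and 9.81, and rpb1S751F arrays at 10.41, 12.04 and 11.60. The highest wild-type array lay inside the rpb1-1 range and just below the lowest rpb1S751F array. HXK1 rose by 2.37 ± 0.69 in rpb1S751F (5.18-fold, adjusted p = 0.0173), a call that was lost without WT1B replicate 1 (adjusted p = 0.0611), WT1B replicate 2 (0.0528), rpb1S751F replicate 2 (0.0652) or rpb1S751F replicate 3 (0.0535). In rpb1-1 the change was 1.36 with a 95% interval of -0.21 to 2.92 (adjusted p = 0.128), and leaving out 1 array gave 0.80 to 2.00. It passed without WT1B replicate 3 (2.00, adjusted p = 0.0286), and was smaller without WT1B replicate 1 (0.80, adjusted p = 0.376) or rpb1-1 replicate 2 (0.82, adjusted p = 0.358). In rpb2-10 HXK1 differed by -0.04 from WT1A, and the rpb1S751F effect exceeded the rpb2-10 effect by 2.41 (adjusted p = 0.0225). That difference lost its call without WT1B replicate 1 (0.0558) or rpb1S751F replicate 2 (0.0582).

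**Figure D2:**
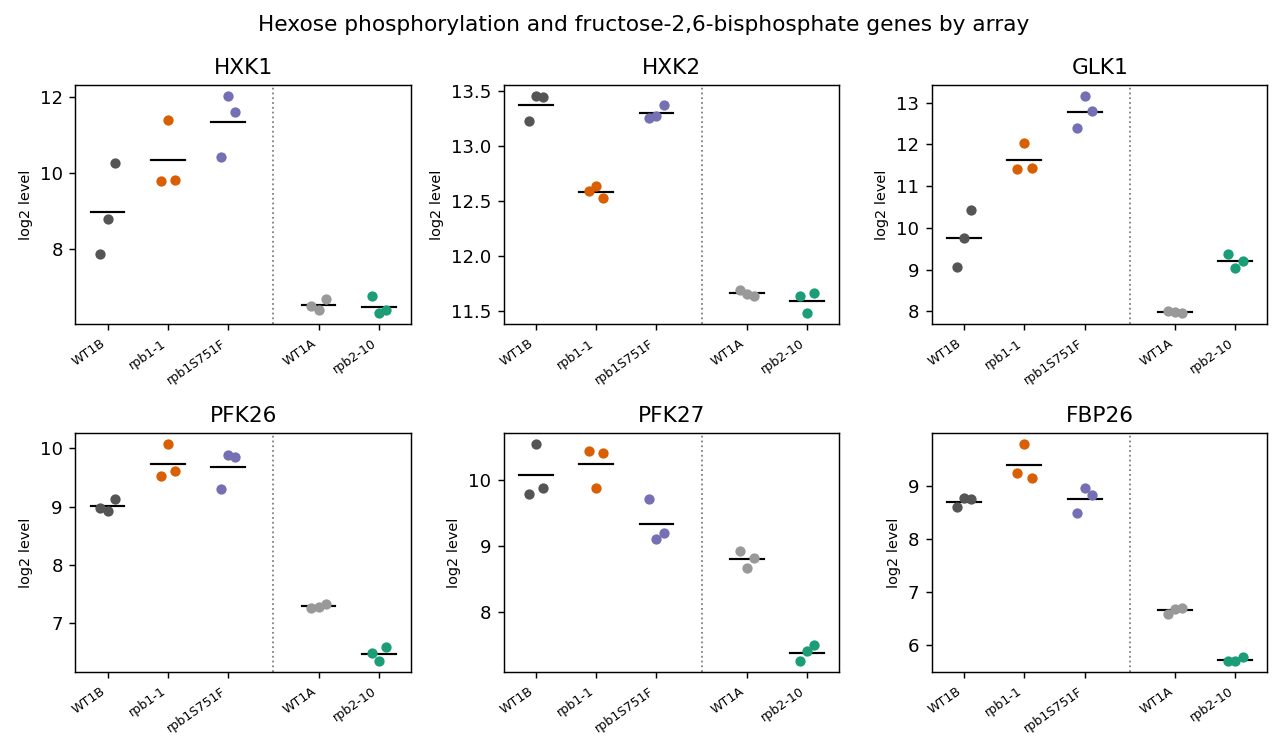
Log2 level by array of the hexose-phosphorylating genes HXK1, HXK2 and GLK1 and of the fructose 2,6-bisphosphate genes PFK26, PFK27 and FBP26 in the 5 strains. Each point is 1 array, bars are group means of 3 arrays, and the dotted line separates the sets normalized apart, across which levels are not comparable. HXK1 spreads from 7.87 to 10.27 in WT1B, while HXK2 is lowest in rpb1-1 among the alpha strains and PFK27 is lower on each rpb2-10 array than on the WT1A arrays.

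The enzymes of upper glycolysis are phosphoglucose isomerase (PGI1), the alpha and beta subunits of phosphofructokinase (PFK1 and PFK2), fructose-bisphosphate aldolase (FBA1) and triosephosphate isomerase (TPI1). In rpb1-1, 4 of these 5 fell and none rose. In rpb1S751F and in rpb2-10, PGI1 and PFK1 rose, and the other 3 were not called. In rpb2-10 TPI1 (0.12, adjusted p = 0.0552) passed in 1 fit over the 15 arrays (0.0426) and with array median centring (0.00714). It also passed with a further quantile normalization (0.0312), without the dimmest genes (0.0437) and with eBayes trend and robust (0.0026). FBA1 passed there with median centring (0.0307) and trend and robust (0.0452), and TPI1 in rpb1S751F with trend and robust (0.0226). Each of the 5 was higher in rpb1S751F than in rpb1-1, where 48% of all genes were called. The shares called were 80%, 40% and 40% in rpb1-1, rpb1S751F and rpb2-10, beside 53.8%, 54.6% and 71.2% of all genes.

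Both phosphofructokinase subunits were lower in rpb1-1 without overlap. PFK1 was at 12.86, 12.95 and 12.83 in WT1B, at 12.33, 12.46 and 12.17 in rpb1-1 and at 13.12, 13.21 and 13.09 in rpb1S751F. It fell by 0.56 ± 0.09 in rpb1-1 (adjusted p = 0.000744) and rose by 0.26 ± 0.09 in rpb1S751F (adjusted p = 0.0316), so the alleles stood on opposite sides of the wild type. The rise was lost in 5 of the 6 fits that left out 1 array, with adjusted p of 0.0815 and 0.0844 without WT1B replicates 1 and 3, and of 0.0534, 0.0924 and 0.0529 without rpb1S751F replicates 1, 2 and 3. A further quantile normalization also ended the call (0.20, adjusted p = 0.074). In rpb2-10 PFK1 rose by 0.18 ± 0.05 (adjusted p = 0.0102). PFK2 fell by 0.64 ± 0.07 in rpb1-1 (adjusted p = 8.64e-05), from 13.15, 13.26 and 13.14 to 12.57, 12.58 and 12.49. Its changes were 0.01 in rpb1S751F and -0.0041 in rpb2-10.

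The remaining shifts in upper glycolysis were small. FBA1 fell by 0.21 ± 0.06 (adjusted p = 0.0115) and TPI1 by 0.26 ± 0.06 (adjusted p = 0.0038) in rpb1-1, and both belong to the 9 brightest members. PGI1 rose by 0.32 ± 0.07 in rpb1S751F (adjusted p = 0.00496) and by 0.19 ± 0.05 in rpb2-10 (adjusted p = 0.00927), and its change in rpb1-1 was 0.01. Between the rpb1 alleles FBA1 differed by 0.19 (adjusted p = 0.0236), a call that was lost without rpb1-1 replicates 1, 2 or 3 (0.0714, 0.0538 and 0.0506) or without rpb1S751F replicates 2 or 3 (0.0561 and 0.064).

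Of the genes of fructose 2,6-bisphosphate control, PFK26 and FBP26 went in opposite directions in rpb1-1 and rpb2-10. PFK26 and PFK27 encode the kinases that make the metabolite, and FBP26 the phosphatase that removes it. All 3 fell in rpb2-10. PFK26 and FBP26 rose in rpb1-1, and in rpb1S751F PFK26 rose and PFK27 fell. Of the 3, 66.7%, 66.7% and 100% were called in rpb1-1, rpb1S751F and rpb2-10, beside 53.8%, 54.6% and 71.2% of all genes.

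PFK26 was at 8.98, 8.93 and 9.14 in WT1B, at 9.53, 10.08 and 9.61 in rpb1-1 and at 9.30, 9.89 and 9.84 in rpb1S751F. Each array of either rpb1 allele was above the wild-type arrays, with a rise of 0.72 ± 0.19 in rpb1-1 (adjusted p = 0.0104) and of 0.66 ± 0.19 in rpb1S751F (adjusted p = 0.0162). The rpb1S751F call was lost without WT1B replicate 2 (0.0545) or rpb1S751F replicates 2 or 3 (0.0608 and 0.0592). In the a set PFK26 was at 7.26, 7.28 and 7.32 in WT1A and at 6.48, 6.34 and 6.58 in rpb2-10. It fell there by 0.82 ± 0.06 (adjusted p = 7.72e-06). The rpb1-1 effect exceeded the rpb2-10 effect by 1.54 ± 0.22 (adjusted p = 6.22e-05), and the rpb1S751F effect exceeded it by 1.48 ± 0.22 (adjusted p = 0.000111).

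FBP26 showed the same reversal between rpb1-1 and rpb2-10. WT1B arrays were at 8.60, 8.76 and 8.74 and rpb1-1 arrays at 9.24, 9.79 and 9.15, a rise of 0.69 ± 0.18 (adjusted p = 0.0101). WT1A arrays were at 6.58, 6.68 and 6.69 and rpb2-10 arrays at 5.69, 5.69 and 5.78, so that FBP26 fell by 0.93 ± 0.05 (adjusted p = 1.5e-06). Neither pair of groups overlapped, and the effects differed by 1.62 ± 0.21 (adjusted p = 2.43e-05). In rpb1S751F the change was 0.05, and FBP26 was lower there than in rpb1-1 by a change of -0.64 ± 0.18 (adjusted p = 0.0167), a call lost without rpb1S751F replicate 1 (0.0526).

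PFK27, the kinase gene known to be induced by glucose, fell by 1.41 ± 0.08 in rpb2-10 (2.66-fold lower, adjusted p = 1.62e-06), from 8.92, 8.66 and 8.81 to 7.25, 7.40 and 7.49. In the alpha set it was at 9.79, 10.55 and 9.87 in WT1B, 10.43, 9.87 and 10.41 in rpb1-1 and 9.70, 9.11 and 9.19 in rpb1S751F. The rpb1-1 arrays lay within the wild-type range and the rpb1S751F arrays below it. PFK27 fell by 0.74 ± 0.25 in rpb1S751F (adjusted p = 0.032), which was lost without WT1B replicate 2 (0.103) or rpb1S751F replicates 2 or 3 (0.106 and 0.0951). It also differed by -0.90 ± 0.25 between the rpb1 alleles (adjusted p = 0.015), lost without rpb1-1 replicates 1 or 3 (0.0541 and 0.0516) or rpb1S751F replicates 2 or 3 (0.0555 and 0.0523).

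In lower glycolysis, from glyceraldehyde-3-phosphate dehydrogenase to pyruvate kinase, 10 members were measured. None rose and 3 fell in rpb1-1, 2 rose and 2 fell in rpb1S751F, and 4 rose and 1 fell in rpb2-10. That is 30%, 40% and 50% called, below the 53.8%, 54.6% and 71.2% of all genes. The minor isoenzyme genes TDH1, GPM2, GPM3, ENO1 and PYK2 held the changes above 0.3 in size. The genes PGK1 (phosphoglycerate kinase), GPM1 (the main phosphoglycerate mutase), ENO2 (enolase 2) and CDC19 (the main pyruvate kinase), like TDH3, differed from their wild types by no more than 0.27 in either direction.

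TDH1, the glyceraldehyde-3-phosphate dehydrogenase gene associated with stationary phase and stress, was at 12.08, 12.12 and 12.08 in WT1B. It was at 11.25, 11.04 and 10.56 in rpb1-1 and at 12.20, 12.23 and 12.12 in rpb1S751F. The rpb1-1 arrays were the lowest and the other alpha groups lay close together. TDH1 fell by 1.14 ± 0.15 in rpb1-1 (2.21-fold lower, adjusted p = 0.000289), changed by 0.09 in rpb1S751F without passing the test, and was 1.23 ± 0.15 higher in rpb1S751F than in rpb1-1 (adjusted p = 0.00022). In rpb2-10 the change was -0.14.

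ENO1, the enolase gene known to be more highly expressed on poor carbon sources, fell in rpb1-1 and in rpb2-10. It was at 13.39, 13.52 and 13.57 in WT1B and at 12.63, 12.78 and 12.60 in rpb1-1, and fell by 0.83 ± 0.09 (adjusted p = 7.5e-05). In the a set it went from 11.68, 11.61 and 11.68 to 11.10, 11.00 and 11.04, and fell by 0.61 ± 0.05 (adjusted p = 9.34e-06). The rpb1S751F arrays, at 13.52, 13.56 and 13.71, overlapped with WT1B, a change of 0.10. The rpb1S751F effect on ENO1 exceeded that of rpb2-10 by 0.71 (adjusted p = 6.32e-05) and that of rpb1-1 by 0.93 ± 0.09 (adjusted p = 4.55e-05).

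GPM2 and GPM3 are annotated as homologues of phosphoglycerate mutase, and in yeast GPM1 supplies the main activity. GPM2 was at 5.18, 5.99 and 6.59 in WT1B, at 6.52, 7.51 and 7.15 in rpb1-1 and at 7.62, 9.01 and 8.66 in rpb1S751F. It was at 3.20, 3.37 and 3.23 in WT1A and at 5.45, 4.98 and 5.31 in rpb2-10. The rpb2-10 and rpb1S751F arrays did not overlap with their wild types, while the lowest rpb1-1 array was just below the highest WT1B array. GPM2 rose by 1.98 ± 0.11 in rpb2-10 (3.95-fold, adjusted p = 1.26e-06) and by 2.51 ± 0.45 in rpb1S751F (5.69-fold, adjusted p = 0.00156). In rpb1-1 the change was 1.14 with an interval of 0.13 to 2.16 (adjusted p = 0.0575), and leaving out 1 array gave 0.77 to 1.47. It passed without WT1B replicate 3 (1.47, adjusted p = 0.0275) or rpb1-1 replicate 1 (1.41, adjusted p = 0.0425), in 1 fit over the 15 arrays (0.0171) and after a further quantile normalization (1.30, adjusted p = 0.0274), while the adjusted p was up to 0.189 without another array.

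The alleles of rpb1 differed in GPM2 by 1.37 ± 0.45 (adjusted p = 0.0324), a call lost without rpb1-1 replicates 1 or 3 (0.111 and 0.0655) or rpb1S751F replicates 2 or 3 (0.113 and 0.0946). A further quantile normalization also ended that call (1.09, adjusted p = 0.0589). GPM3 went the other way: it fell by 0.90 ± 0.10 in rpb1-1 (adjusted p = 0.000134), from 9.78, 9.65 and 9.55 to 8.83, 8.64 and 8.82. It also fell by 0.30 ± 0.10 in rpb1S751F (adjusted p = 0.0326), lost without WT1B replicates 1 or 2 (0.109 and 0.0757) or rpb1S751F replicates 2 or 3 (0.101 and 0.107). Its change in rpb2-10 was -0.12 and not called.

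PYK2, a pyruvate kinase gene repressed by glucose, rose by 1.01 ± 0.28 in rpb1S751F (2.02-fold, adjusted p = 0.015) and by 0.87 ± 0.07 in rpb2-10 (1.83-fold, adjusted p = 9.34e-06). It was at 7.23, 7.76 and 8.09 in WT1B, at 8.32, 9.08 and 8.71 in rpb1S751F, at 5.85, 5.94 and 5.86 in WT1A and at 6.91, 6.65 and 6.71 in rpb2-10. Neither pair overlapped. The rpb1S751F call was lost without WT1B replicate 1 (0.053) or rpb1S751F replicate 2 (0.0581). In rpb1-1, at 7.60, 8.21 and 8.39, the arrays overlapped with WT1B and the change of 0.37 was not called.

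HXK1, GLK1, GPM2 and PYK2 shared a pattern over the replicates. For each of them replicate 1 was the lowest array in WT1B, in rpb1-1 and in rpb1S751F. Replicate 3 was the highest of the WT1B arrays, and in rpb2-10 replicate 1 was the highest. WT1A showed no common order: replicate 1 was the highest for GLK1, and replicate 2 the lowest for HXK1. These genes were singled out from the members, and the share of all genes with the same order was not counted. Over all tested genes, replicate 1 arrays of the alpha strains also deviated alike (correlations of 0.319, 0.477 and 0.370), so the order is not read as a trait of these genes. The stress list was measured beside them. In rpb1-1, 9 of 10 general stress genes rose and none fell, with a median change of 2.22, led by HSP12 at 3.56, DDR2 at 3.46 and HSP42 at 2.95, while 28.1% of all genes rose. In rpb1S751F, 8 rose and none fell, with a median of 1.76, while 31.1% of all genes rose. SSA3 (2.87), HSP12 (2.55) and DDR2 (2.49) changed most there. In rpb2-10, 3 rose and 3 fell with a median of -0.02, HSP42 at 1.42, HSP12 at -1.39 and HSP26 at 0.61. The share called there, 60%, was below the 71.2% of all genes. The list's mean relative to the array median ranged from -0.91 to -0.62 in WT1B, 1.07 to 1.84 in rpb1-1, 0.56 to 1.39 in rpb1S751F, -0.64 to -0.51 in WT1A and -0.55 to -0.41 in rpb2-10. The lowest of these means was that of replicate 1 in each strain but rpb2-10. The part of the stress-list changes in the members' changes was not tested.

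The fermentation genes are the pyruvate decarboxylases PDC1, PDC5 and PDC6, which release acetaldehyde and CO2 from pyruvate, and the alcohol dehydrogenases ADH1, ADH3, ADH4 and ADH5 with SFA1, an alcohol and formaldehyde dehydrogenase. Of these 8, 1 rose and 4 fell in rpb1-1, 4 rose and 1 fell in rpb1S751F, and 3 rose and 2 fell in rpb2-10. The share called was 62.5% in each mutant, beside 53.8%, 54.6% and 71.2% of all genes in that order. Between the rpb1 alleles 6 were higher in rpb1S751F and none lower, 75% called beside 48% of all genes. PDC1, the main decarboxylase gene, changed by -0.02, 0.0047 and 0.02 in rpb1-1, rpb1S751F and rpb2-10 and was not called.

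ADH5 had the largest fall among the members. It was at 9.64, 9.58 and 9.55 in WT1B, at 6.30, 6.04 and 6.26 in rpb1-1 and at 8.72, 8.93 and 8.81 in rpb1S751F. The 3 groups were wholly apart, with rpb1S751F between the wild type and rpb1-1. ADH5 fell by 3.39 ± 0.09 in rpb1-1 (10.5-fold lower, adjusted p = 1.15e-07) and by 0.77 ± 0.09 in rpb1S751F (1.71-fold lower, adjusted p = 0.000153), a difference between the alleles of 2.62 ± 0.09 (adjusted p = 2.18e-07). In the a set it was at 7.52, 7.58 and 7.47 in WT1A and at 7.02, 6.83 and 6.82 in rpb2-10, again without overlap. It fell there by 0.63 ± 0.06 (1.55-fold lower, adjusted p = 3.33e-05), and the rpb1-1 effect differed from this by -2.76 ± 0.11 (adjusted p = 1.05e-09).

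The decarboxylase isoenzymes other than PDC1 separated the rpb1 alleles. PDC6, known for induction in sulfur limitation, was at 6.54, 6.72 and 6.54 in WT1B, at 6.31, 5.96 and 5.86 in rpb1-1 and at 7.61, 7.90 and 7.80 in rpb1S751F. The rpb1-1 arrays were below and the rpb1S751F arrays above the wild type, with no overlap. PDC6 fell by 0.56 ± 0.13 in rpb1-1 (adjusted p = 0.00576) and rose by 1.17 ± 0.13 in rpb1S751F (2.25-fold, adjusted p = 0.00012). A further quantile normalization of the alpha arrays ended the rpb1-1 call (-0.28, adjusted p = 0.077). In rpb2-10 the change was -0.04.

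PDC5, the decarboxylase gene known to be expressed strongly when PDC1 is absent or thiamine is scarce, was at 9.14, 9.32 and 9.32 in WT1B and at 8.38, 8.61 and 8.49 in rpb1-1. In rpb1S751F it was at 12.83, 9.92 and 10.89, with replicate 1 far above the others. All rpb1S751F arrays were above and all rpb1-1 arrays below the wild type. The rise in rpb1S751F was 1.95 ± 0.59 (3.87-fold, adjusted p = 0.0201), and without rpb1S751F replicate 1 it was 1.15 (adjusted p = 0.00542). Its call was lost without WT1B replicates 1 or 2 (0.0569 and 0.0504). In rpb1-1 the change was -0.77 with an interval of -2.10 to 0.56 (adjusted p = 0.3), since the spread of the rpb1S751F arrays enters the shared variance of that fit. In rpb2-10 PDC5 rose by 0.58 ± 0.07 (adjusted p = 6.14e-05), and in 1 fit over the 15 arrays, which takes in that spread too, the adjusted p was 0.319.

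ADH4, a dehydrogenase gene known for its response to low zinc, was at 10.65, 10.88 and 10.68 in WT1B, at 10.32, 9.88 and 9.92 in rpb1-1 and at 11.35, 11.40 and 11.31 in rpb1S751F. It was at 9.03, 9.08 and 8.97 in WT1A and at 8.48, 8.53 and 8.51 in rpb2-10. None of the mutants overlapped with its wild type: rpb1-1 and rpb2-10 were below and rpb1S751F above. ADH4 fell by 0.70 ± 0.12 in rpb1-1 (adjusted p = 0.00128) and by 0.52 ± 0.05 in rpb2-10 (adjusted p = 2.01e-05), and rose by 0.61 ± 0.12 in rpb1S751F (adjusted p = 0.00277). The alleles of rpb1 differed by 1.31 ± 0.12 (2.48-fold, adjusted p = 4.58e-05), and rpb1S751F and rpb2-10 effects by 1.13 ± 0.14 (adjusted p = 2.24e-05).

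SFA1 rose in the 3 mutants, by 0.83 ± 0.08 in rpb1-1 (adjusted p = 3.72e-05), 0.66 ± 0.08 in rpb1S751F (adjusted p = 0.000153) and 0.50 ± 0.05 in rpb2-10 (adjusted p = 3.7e-05). It went from 11.16, 11.08 and 11.21 in WT1B to 11.93, 12.08 and 11.94 in rpb1-1 and 11.73, 11.90 and 11.82 in rpb1S751F, and from 8.83, 8.85 and 8.91 in WT1A to 9.40, 9.30 and 9.40 in rpb2-10. No mutant array overlapped with its wild type. The mitochondrial ADH3 rose in rpb2-10 by 0.38 ± 0.05 (adjusted p = 0.000153), and its changes in rpb1-1 and rpb1S751F, -0.18 and 0.06, were not called. ADH1, the main enzyme of ethanol formation, fell in rpb1-1 by 0.32 ± 0.06 (adjusted p = 0.0014) and changed by -0.05 in rpb1S751F and 0.01 in rpb2-10.

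Between the rpb1 alleles ADH3 differed by 0.24 (adjusted p = 0.0486), which was lost without rpb1-1 replicates 1 or 3 (0.146 and 0.125) or rpb1S751F replicates 2 or 3 (0.143 and 0.113). The GLK1 difference between the alleles, 1.15 ± 0.34 (adjusted p = 0.0212), was likewise lost without rpb1-1 replicates 1 or 3 (0.0699 and 0.066) or rpb1S751F replicates 2 or 3 (0.0774 and 0.0567). The PDC5 difference of 2.72 ± 0.59 (adjusted p = 0.00467) and the PDC6 difference of 1.73 ± 0.13 (adjusted p = 1.25e-05) were kept in each of these fits.

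**Figure D3:**
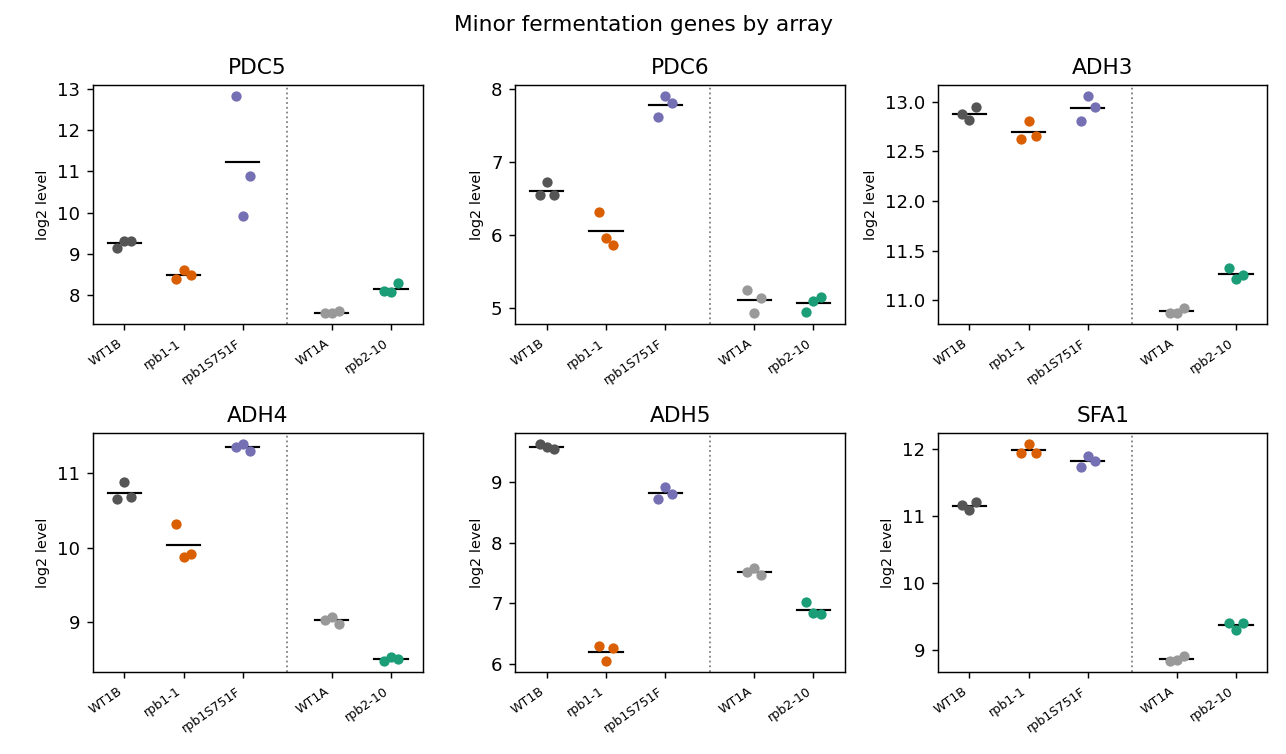
Log2 level by array of the minor pyruvate decarboxylase genes PDC5 and PDC6 and of ADH3, ADH4, ADH5 and SFA1. Each point is 1 array, bars are means of 3 arrays, and the dotted line separates the sets normalized apart. ADH5 in rpb1-1 lies between 6.04 and 6.30 against 9.55 to 9.64 in WT1B, and PDC5 in rpb1S751F spreads from 9.92 to 12.83.

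The regulators measured were GCR1 and GCR2, which act together as activators of glycolytic genes, TYE7, a basic helix-loop-helix activator of glycolytic genes, and PDC2, an activator of PDC1 and PDC5. In rpb1-1, 1 rose and 3 fell. In rpb1S751F none rose and 2 fell, and in rpb2-10 1 rose and 2 fell. The shares called were 100%, 50% and 75% in rpb1-1, rpb1S751F and rpb2-10, beside 53.8%, 54.6% and 71.2% of all genes. TYE7 and GCR2 were lower in the 3 mutants, while GCR1 and PDC2 took different directions.

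TYE7 was at 11.83, 11.87 and 11.17 in WT1B, at 10.42, 9.86 and 10.08 in rpb1-1 and at 10.86, 10.75 and 10.69 in rpb1S751F. The groups did not overlap, and rpb1S751F lay between the wild type and rpb1-1. TYE7 fell by 1.51 ± 0.20 in rpb1-1 (2.84-fold lower, adjusted p = 0.00031), by 0.86 ± 0.20 in rpb1S751F (1.81-fold lower, adjusted p = 0.00649) and by 0.76 ± 0.07 in rpb2-10 (1.69-fold lower, adjusted p = 1.88e-05). In the a set its arrays went from 9.19, 9.24 and 9.38 to 8.47, 8.63 and 8.45. The alleles of rpb1 differed by 0.65 ± 0.20 (adjusted p = 0.0257), which was lost without rpb1-1 replicates 2 or 3 (0.0773 and 0.0668) or any 1 rpb1S751F replicate (0.0679, 0.0606 and 0.0514).

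GCR1 fell by 0.63 ± 0.14 in rpb1-1 (adjusted p = 0.00439) and rose by 0.33 ± 0.05 in rpb2-10 (adjusted p = 0.00046), effects that differed by -0.95 ± 0.16 (adjusted p = 0.000204). It was at 9.76, 9.79 and 10.07 in WT1B, 9.09, 9.49 and 9.16 in rpb1-1 and 10.03, 10.22 and 10.37 in rpb1S751F, and at 8.05, 8.01 and 8.12 in WT1A and 8.43, 8.34 and 8.39 in rpb2-10. The rpb1-1 arrays were below WT1B, the rpb2-10 arrays above WT1A, and the rpb1S751F arrays overlapped with WT1B at 1 end. In rpb1S751F the change was 0.34 (interval 0.03 to 0.65, adjusted p = 0.064), and it passed without WT1B replicate 3 (0.43, adjusted p = 0.0336) or rpb1S751F replicate 1 (0.42, adjusted p = 0.0386). GCR1 was 0.96 ± 0.14 higher in rpb1S751F than in rpb1-1 (1.95-fold, adjusted p = 0.000507).

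GCR2 fell by 0.37 ± 0.06 in rpb2-10 (adjusted p = 0.000496), from 7.32, 7.32 and 7.21 to 6.96, 6.83 and 6.97. In the alpha set its changes were -0.25 ± 0.09 in rpb1-1 (adjusted p = 0.0358) and -0.23 ± 0.09 in rpb1S751F (adjusted p = 0.0495). WT1B stood at 8.995, 9.21 and 9.12, rpb1-1 at 8.97, 8.76 and 8.84 and rpb1S751F at 8.97, 8.86 and 8.80, so the mutant arrays lay just below the wild type. Both calls were lost without WT1B replicates 2 or 3 (up to 0.127 and 0.162 in rpb1-1 and rpb1S751F) and without replicates 2 or 3 of the mutant (up to 0.112 and 0.151). PDC2 rose by 0.54 ± 0.11 in rpb1-1 (adjusted p = 0.00332), from 8.85, 8.73 and 8.47 to 9.27, 9.11 and 9.28. Its changes were 0.27 in rpb1S751F (adjusted p = 0.068, and 0.0371 without WT1B replicate 1) and -0.14 in rpb2-10 (0.0186 without WT1A replicate 3, at -0.20).

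**Figure D4:**
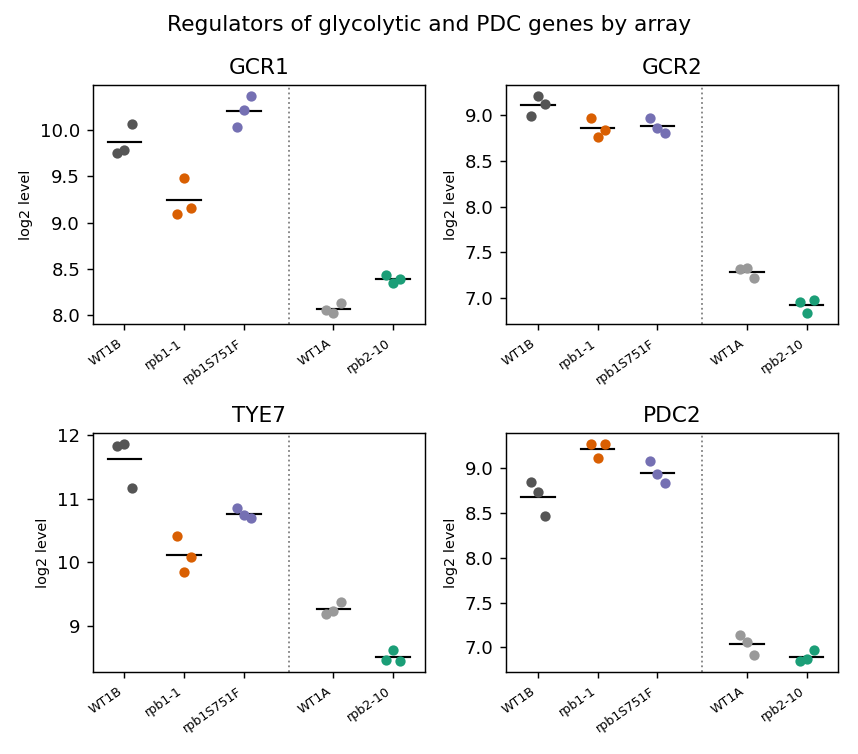
Log2 level by array of GCR1, GCR2, TYE7 and PDC2 in the 5 strains. Each point is 1 array, bars are means of 3 arrays, and the dotted line separates the sets normalized apart. TYE7 lies between 9.86 and 10.42 in rpb1-1 against 11.17 to 11.87 in WT1B, and GCR1 is below its wild type in rpb1-1 and above it in rpb2-10.

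Isoenzymes and other paired genes were compared by the log2 ratio of both genes on the same array, which cancels what an array shares over its genes. Of 17 pairs listed, 16 were measured, each with an abundant or reference gene as the denominator. Not all pairs are isoenzymes: PFK2 and PFK1 encode subunits of 1 enzyme, and FBP26 and PFK26 a phosphatase and a kinase that oppose each other. With 3 arrays against 3, an exact two-sided permutation test cannot go below p = 0.1, which it reached wherever the groups did not overlap, and the smallest value adjusted over the 64 comparisons was 0.131. The groups did not overlap for 11 of 16 pairs in rpb1-1, 14 in rpb1S751F, 13 in rpb2-10 and 11 between the rpb1 alleles. Of single genes 63.2%, 62.5%, 76.1% and 56.7% did not overlap in that order, so these counts are not read as a trait of the pairs. A change in ratio of 1 log2 unit or more was seen for 6, 6, 2 and 7 pairs in that order. The share over other gene pairs was not counted, so these counts are not read as a trait either. The denominators TDH3, GPM1, ENO2, CDC19, PDC1 and ADH1 are among the 9 brightest members, whose changes were small. Those ratios thus largely follow the other gene.

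At hexose phosphorylation the ratio of GLK1 to HXK2 was higher by 2.68 ± 0.38 in rpb1-1, 3.11 ± 0.40 in rpb1S751F and 1.29 ± 0.06 in rpb2-10. The ratio of HXK1 to HXK2 was higher by 2.15 ± 0.82 and 2.45 ± 0.80 in the rpb1 alleles and differed by 0.03 in rpb2-10. Thus the GLK1 ratio moved in the 3 mutants without overlap, and the HXK1 ratio did so in the rpb1 alleles.

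At the enolase step the ratio of ENO1 to ENO2 differed by -0.71 ± 0.07 in rpb1-1, 0.37 ± 0.06 in rpb1S751F and -0.68 ± 0.03 in rpb2-10. None of these overlapped with its wild type, and the direction in rpb1S751F was the opposite of the other two. In rpb1S751F ENO2 itself fell by 0.27 ± 0.07 (adjusted p = 0.011), while the change of ENO1 was not called. The ratio of TDH1 to TDH3 differed by -1.13 ± 0.21 in rpb1-1 and by 0.10 and -0.18 in rpb1S751F and rpb2-10, the last being -0.116 without WT1A replicate 1.

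The ratio of GPM2 to GPM1 was higher by 1.22 ± 0.50, 2.47 ± 0.57 and 1.81 ± 0.16 in rpb1-1, rpb1S751F and rpb2-10, and that of PYK2 to CDC19 by 0.46, 0.97 ± 0.32 and 0.82 ± 0.10. The PYK2 ratio in rpb1-1, whose arrays overlapped with WT1B, was 0.246 without WT1B replicate 1. The ratio of PDC5 to PDC1 differed by -0.74 ± 0.08, 1.95 ± 0.85 and 0.57 ± 0.07, and that of PDC6 to PDC1 by -0.53, 1.17 ± 0.10 and -0.06. Without rpb1S751F replicate 1 the PDC5 ratio was 1.15 in that strain. A further quantile normalization took the PDC6 ratio to -0.299 in rpb1-1, to 0.874 in rpb1S751F and to 0.114 in rpb2-10. With the arrays as deposited both decarboxylase ratios lay below the wild type in rpb1-1 and above it in rpb1S751F.

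Among the alcohol dehydrogenases the ratio of ADH5 to ADH1 differed by -3.07 ± 0.09, -0.72 and -0.64 in rpb1-1, rpb1S751F and rpb2-10. With a further quantile normalization the ADH5 ratio differed by -2.78 in rpb1-1 and -0.80 in rpb1S751F. The ratio of SFA1 to ADH1 was higher by 1.15 ± 0.06, 0.71 and 0.49, so these pairs moved in opposite directions in each mutant. For ADH4 the ratio to ADH1 differed by -0.38, 0.66 and -0.53, and the rpb1-1 arrays overlapped with WT1B. For ADH3 the ratio differed by 0.14, 0.11 and 0.36, and the rpb1S751F arrays overlapped with WT1B. A further quantile normalization took the first of these ADH3 values to 0.0451 and the second to 0.0096. Without rpb1-1 replicate 2 the first was 0.089, and without rpb1S751F replicate 2 the second was 0.0622. For phosphofructokinase the ratio of PFK2 to PFK1 stayed within 0.25 in size, at -0.08, -0.25 ± 0.01 and -0.19 ± 0.03. The ratio of PFK27 to PFK26 differed by -0.56, -1.40 ± 0.47 and -0.59 ± 0.12, and that of FBP26 to PFK26 by -0.03, -0.61 ± 0.09 and -0.10 in the same order. Arrays overlapped with the wild type for PFK27 to PFK26 in rpb1-1, where the value was -0.271 without WT1B replicate 2 and -0.202 without rpb1-1 replicate 2, and for FBP26 to PFK26 in rpb1-1 and rpb2-10.

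**Figure D5:**
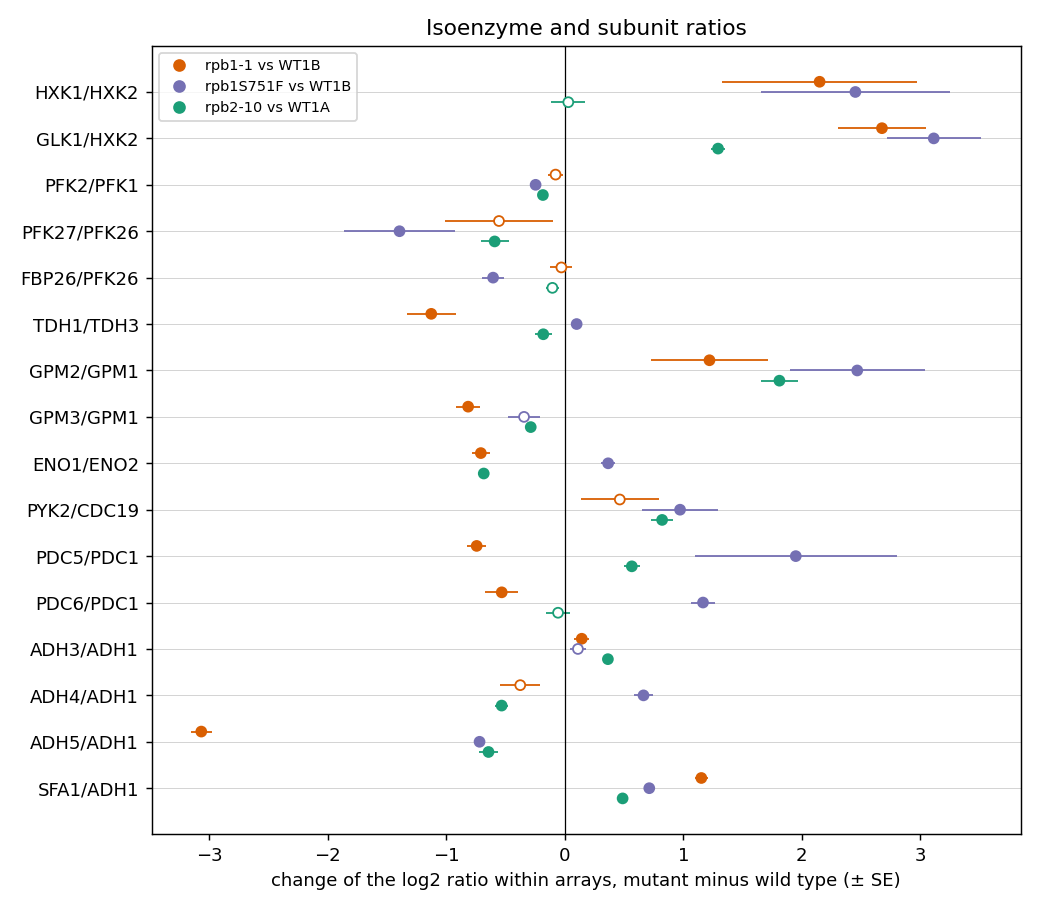
Change of the log2 ratio within 16 pairs of isoenzyme, subunit or opposing enzyme genes (mutant minus wild type, points ± SE, 3 arrays per group) in rpb1-1, rpb1S751F and rpb2-10. Filled points mark pairs whose arrays do not overlap between mutant and wild type, and open points those that do. ADH5/ADH1 at -3.07 in rpb1-1 and GLK1/HXK2 at 3.11 in rpb1S751F are the ends of the range.

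Genes of the neighbouring pathways were measured in the same fits, and their counts stand beside all genes, of which 28.1% rose and 25.7% fell in rpb1-1, 31.1% and 23.5% in rpb1S751F, and 32% and 39.1% in rpb2-10. Of 7 genes that lead from pyruvate to acetyl-CoA or oxaloacetate, 5 rose and 1 fell in rpb1-1, 6 rose in rpb1S751F, and 4 rose and 1 fell in rpb2-10. The share called was 85.7% in each rpb1 allele, and 71.4% in rpb2-10, near the 71.2% of all genes. PYC1, a pyruvate carboxylase gene, rose by 0.92, 0.99 and 0.57 in that order. LPD1 and LAT1, subunits of pyruvate dehydrogenase, rose by 0.74 and 0.62 in rpb1-1 and by 0.78 and 0.66 in rpb1S751F. In rpb2-10 PDA1, another subunit, rose by 0.38 and PYC2, the second carboxylase gene, fell by 0.45.

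Of 13 genes of gluconeogenesis and ethanol use, 7 rose and 1 fell in rpb1-1, 8 rose and 2 fell in rpb1S751F, and 2 rose and 5 fell in rpb2-10. The shares called were 61.5%, 76.9% and 53.8%, beside 53.8%, 54.6% and 71.2% of all genes. ADH2, the dehydrogenase that consumes ethanol, rose by 2.59 in rpb1-1 and 4.16 in rpb1S751F. ADR1, a transcription factor that activates ADH2, rose by 3.40, 3.11 and 1.55 in rpb1-1, rpb1S751F and rpb2-10. ALD4, a mitochondrial aldehyde dehydrogenase, rose by 2.71 and 2.88 in the rpb1 alleles. In rpb2-10 FBP1, fructose-1,6-bisphosphatase, fell by 1.55 and MLS1, malate synthase, by a change of -1.29. FBP1 lay near the background there, at 1.88, 2.35 and 2.67 against 1.85, 1.84 and 1.87, so the size of its fall is uncertain.

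In the glycerol branch, 2 of 5 genes rose and 2 fell in rpb1-1, where GPP1, a glycerol-phosphatase gene, fell by 1.08, GPD2, a glycerol-phosphate dehydrogenase gene, fell by 1.02, and GPP2 rose by 0.63. In rpb1S751F 2 rose and 1 fell (GPP2 1.52, the glycerol channel gene FPS1 0.52, GPP1 -0.38), and in rpb2-10 2 rose and 2 fell (GPP1 -0.48, GPP2 -0.45, GPD2 0.35). Of 11 pentose phosphate genes, 4 rose and 5 fell in rpb1-1 (SOL4 1.88, RKI1 -1.52, NQM1 0.82), 7 rose and 2 fell in rpb1S751F (TKL2 2.53, NQM1 2.28, SOL4 1.90), and 6 rose and 1 fell in rpb2-10 (SOL4 -0.86, RPE1 0.59, TAL1 0.46). The shares called were 80%, 60% and 80% in the glycerol branch and 81.8%, 81.8% and 63.6% among pentose phosphate genes, against the same backgrounds. GPP1 was thus lower in the 3 mutants, and SOL4, a 6-phosphogluconolactonase gene, was higher in both rpb1 alleles and lower in rpb2-10.

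Among 5 further regulators of carbon metabolism, 3 rose in rpb1-1, 1 rose in rpb1S751F and 3 fell in rpb2-10, which is 60%, 20% and 60% called. HAP4, the regulatory subunit of the activator of respiratory genes, rose by 1.30 in rpb1-1 and fell by 1.73 in rpb2-10. MIG1, the glucose repressor, rose by 0.64 and 0.77 in rpb1-1 and rpb1S751F and fell by 0.48 in rpb2-10. REB1, a general regulatory factor, rose by 0.22 in rpb1-1, and RAP1, which binds many glycolytic promoters together with Gcr1, fell by 0.25 in rpb2-10. The mutated subunit genes themselves, RPO21 and RPB2, rose by 0.40 and 0.63 in rpb1-1 and by 0.37 and 0.36 in rpb1S751F. In rpb2-10 neither was called, with changes of 0.15 for RPO21 and 0.0039 for RPB2. These levels check no label, since none of the alleles is labelled a deletion.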

How the data were processed

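RNA from 15 cultures of 5 yeast strains was measured on Affymetrix Yeast Genome 2.0 arrays. The authors deposited log2 levels, 1 per probe set and array. The submitters' processing notes name RMA and limma, without versions. What limma was used for, and any filter, is not given in the sources used here. Of 10928 probe sets, 5498 name 1 S. cerevisiae gene, 1746 belong to another yeast, 3683 have no name and 1 names several genes. Where a gene had more than 1 probe set (47 genes) the brightest was used, giving 5449 genes to test, and 12 symbols were updated through RefSeq's gene table.

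The 9 alpha and the 6 a arrays were fitted separately with limma 3.58.1 (lmFit and eBayes, R 4.3.3), each mutant against its wild type, with two-sided Benjamini-Hochberg adjusted p-values over 5449 genes and a threshold of 0.05. Effects of alpha and a mutants were compared by contrasts in 1 fit over the 15 arrays. The precision is limited by 3 arrays per group, and background was the 95th percentile of the other yeast's probe sets on each array. Probe sequences were not used, so cross-hybridisation between near-identical isoenzyme genes (TDH1 and TDH3, ENO1 and ENO2, PDC1 and PDC5) was not tested.

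Groups were taken from the labels. The alternatives were 1 fit over the 15 arrays, centring each array on its median, a further quantile normalization, leaving out the dimmest 25% of genes, averaging the probe sets of a gene, leaving out genes with shared probes, eBayes with trend and robust, a replicate block and leaving out each array. The fits were tested on simulated data. Named genes are the members, RPO21, RPB2, some mating-type genes and up to 3 called genes per neighbouring list and comparison with the largest change. The members and lists were chosen with earlier results of these data known.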

Additional observations from a re-analysis of the deposited data

Results flagged for a closer look

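For 5 members the effects of an rpb1 allele and of rpb2-10 had opposite signs and each passed its own test. The difference between the effects also passed in 1 limma fit over the 15 arrays. The share of all genes that met this rule was not counted, so the number is not read as a trait of the members. PFK26 rose by 0.72 in rpb1-1 and 0.66 in rpb1S751F and fell by 0.82 in rpb2-10, differences of 1.54 ± 0.22 (adjusted p = 6.22e-05) and 1.48 ± 0.22 (adjusted p = 0.000111). FBP26 rose by 0.69 in rpb1-1 and fell by 0.93 in rpb2-10, a difference of 1.62 ± 0.21 (adjusted p = 2.43e-05). PFK1 fell by 0.56 in rpb1-1 and rose by 0.18 in rpb2-10, a difference of -0.74 ± 0.10 (adjusted p = 4.34e-05), and GCR1 fell by 0.63 and rose by 0.33, a difference of -0.95 ± 0.16 (adjusted p = 0.000204). ADH4 rose by 0.61 in rpb1S751F and fell by 0.52 in rpb2-10, a difference of 1.13 ± 0.14 (adjusted p = 2.24e-05). Mating type and normalization set go with the gene mutated in these comparisons, and their parts cannot be told apart. With 3 arrays per group, single arrays were not tested as outliers.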

How the results depend on the processing

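The number of members called stayed within 1.5 times its value under the alternatives, apart from those named here. With 1 array left out, calls in rpb1S751F against WT1B ranged from 10 to 17 (7 to 11 higher, 3 to 6 lower). For rpb1S751F against rpb1-1, the 2 lower calls became 5 in 1 fit over the 15 arrays, and were 1 to 2 with 1 array left out. For the difference between the rpb1S751F and rpb2-10 effects, the 8 higher calls became 5 without the dimmest genes, and the 2 lower calls became 4 both with median centring and with trend and robust (2 to 3 with 1 array left out). Median centring moved the rpb2-10 split from 11 higher and 8 lower to 15 and 8. Calls were kept in all 6 fits with 1 array left out for 19 of 20 members in rpb1-1, 9 of 17 in rpb1S751F, 18 of 19 in rpb2-10 (PGK1 was lost without rpb2-10 replicate 1, adjusted p = 0.0646) and 14 of 21 between the rpb1 alleles.

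Replicate numbers did not pair the samples throughout. Over 12 pairs of same-numbered arrays the deviations correlated between -0.313 and 0.497, and over 24 differently numbered pairs between -0.600 and 0.554. Replicate 1 arrays of the alpha strains correlated positively, at 0.319, 0.477 and 0.370, while their replicates 2 and 3 gave both signs. Same-numbered arrays of the a set were at -0.123, -0.017 and -0.242. With a replicate block the calls were 21 in rpb1-1, 17 in rpb1S751F, 18 in rpb2-10 and 21 between the alleles. The block ended the calls of GCR2 (adjusted p = 0.0577) in rpb1-1, PFK27 (0.054) and GCR2 (0.0742) in rpb1S751F, PGK1 (0.0504) in rpb2-10 and ADH3 (0.0525) between the alleles. It added GPM2 (0.00262) and PYK2 (0.0495) in rpb1-1, GCR1 (0.0453) and PDC2 (0.0482) in rpb1S751F and PYK2 (0.00689) between the alleles. Of the effect differences it ended PGK1 (0.0576) between rpb1-1 and rpb2-10.

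Signs turned for these values, none of them called with all arrays. Under quantile normalization ADH3 (from 0.058 to -0.0023), FBA1 (-0.026 to 0.025) and PFK2 (0.014 to -0.0023) turned in rpb1S751F, PDC1 in rpb1-1 (-0.025 to 0.015), GCR2 between the alleles (0.022 to -0.0052), and HXK1 (-0.038 to 0.089) and PDC6 (-0.038 to 0.17) in rpb2-10. Under median centring PGI1 became -0.028 in rpb1-1, PDC1 -0.0027 in rpb1S751F, and HXK1 0.027, PDC6 0.027 and PFK2 0.061 in rpb2-10. With 1 array left out PGI1 ranged from -0.049 to 0.042 in rpb1-1. In rpb1S751F the ranges were -0.0025 to 0.12 for ADH3, -0.048 to 0.19 for FBP26, -0.019 to 0.019 for PDC1 and -0.018 to 0.054 for PFK2. In rpb2-10 they were -0.0075 to 0.024 for ADH1, -0.17 to 0.053 for HXK1, -0.13 to 0.033 for PDC6 and -0.035 to 0.034 for PFK2. Between the alleles they were -0.028 to 0.078 for GCR2 and -0.17 to 0.13 for PFK26. The cause was not tested. Members left out with the dimmest genes have no value there. A further quantile normalization moved 13 ratios of paired genes by more than the replicate SD, all of PFK2, GPM3, PDC6, ADH3 or ADH5 to their partners.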
